A study of Mus musculus with 14 samples.

Results

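Aminoacyl-tRNA synthetases of the cytosol and the transporters and enzymes that supply amino acids and folate-bound carbon units were followed in activated mouse B cells. The set held 42 genes, chosen by symbol, and each had a row among the 22295 rows of the expression table. They were 20 synthetases, 9 amino acid transporters, 3 enzymes of serine synthesis, 5 enzymes of folate-linked carbon metabolism and 5 other enzymes of amino acid metabolism. RNA came from splenic B cells isolated by negative selection and stimulated in culture for 4 days with 5 µg/ml LPS, a bacterial activator of B cells, and 10 ng/ml IL-4. Cells of all 3 genotypes received both stimuli, and no unstimulated sample was analysed here. The genotypes were miR155_KO, which lacks miR-155 (miR-155[-/-], n = 5), PU1_KI, in which the site for miR-155 in the PU.1 gene is mutated (PU.1[155-/155-], n = 5), and wild type (WT, n = 4). Both alterations are carried in the germline, so the B cells also developed with them. The study concerns repression of PU.1 by miR-155 in B cells on their way to becoming plasma cells.

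Each synthetase attaches a particular amino acid to its tRNA, and charged tRNAs are what the ribosome reads. B cells that are activated grow, divide and begin to secrete antibody, and all of these draw on amino acid supply. When amino acids run short or the endoplasmic reticulum is stressed, kinases phosphorylate eIF2alpha, general translation falls and translation of ATF4 mRNA rises. ATF4 is a bZIP transcription factor that binds elements named CARE (C/EBP-ATF response element) and is known to induce many synthetases, amino acid transporters and enzymes of serine, asparagine and cysteine synthesis.

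Values are RPKM, reads divided by gene length in kilobases and by library size in units of 1e6 reads, so levels of different genes are compared per length. Depth recovered from the values was 31.4 to 52.4 M reads per library, at which 1 RPKM on a gene of 2 kb stands for 62.9 to 104.7 reads, and counting error is small for the genes tested. Sfpi1, the older symbol of PU.1, stood at 16.7, 17.1, 15.5, 15.8 and 18.3 RPKM in miR155_KO, at 21.1, 22.5, 25.6, 25.96 and 23.3 RPKM in PU1_KI and at 9.73, 12.5, 13.2 and 12.6 RPKM in WT, so the libraries of the genotypes did not overlap. The row for miR-155 itself was not analysed here. Of 8 B cell markers, 7 were tested and all 7 averaged at least 35.8 RPKM in every genotype, while Cr2 stayed under 1 RPKM. The 3 Cd3 genes of T cells did not pass 0.1 RPKM in any library, S100a8, S100a9, Ly6g and Elane of neutrophils were at 0, and 6 plasma cell markers summed to a mean of 327 RPKM in miR155_KO, 293 in PU1_KI and 461 in WT. These markers did not move together. Igj averaged 153 RPKM in miR155_KO, 132 in PU1_KI and 282 in WT, but Irf4 averaged 60.1, 49.5 and 37.9 RPKM in that order. Of 5 tested, 1 was higher and 3 lower in miR155_KO against WT, and 1 higher and 2 lower in PU1_KI against WT. The 8 B cell markers summed to a mean of 1451 RPKM in miR155_KO, 1764 in PU1_KI and 1692 in WT. Of the T cell markers Thy1 alone passed 1 RPKM, at 70.7 RPKM in miR155_KO, 37.9 in PU1_KI and 44.9 in WT. Of 7 macrophage markers Cd68 alone was tested, at 5.08 RPKM in miR155_KO, 10.9 in PU1_KI and 6.80 in WT. Of 6 dendritic cell markers 2 were tested: Flt3 averaged 22.9 RPKM in miR155_KO, 26.0 in PU1_KI and 15.8 in WT, and Zbtb46 averaged 4.62 RPKM in miR155_KO, 2.67 in PU1_KI and 2.34 in WT. Both were called higher in miR155_KO than in WT, and the rest of these 2 lists stayed under 1 RPKM in every library. The part of these markers in the results was not tested. In bulk RNA, fewer cells of a type and less RNA per cell cannot be told apart.

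Within each genotype a single library ran high. Of the 41 members tested, 36 were highest in miR155_KO_5 among the miR155_KO libraries, 38 in PU1_KI_4 among the PU1_KI libraries and 30 in WT_4 among the WT libraries. The share of all 9627 tested genes that were highest in the same library was 54.3% for miR155_KO_5, 57.6% for PU1_KI_4 and 49.2% for WT_4. The sources used here give neither sequencing pools nor culture days, so such batches and genotype cannot be told apart. The counts of members called in all were therefore also taken without these 3 libraries. Counts by role are not given without them, nor are the other counts below.

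A gene was called when its Benjamini-Hochberg adjusted p from limma, over all 9627 genes, was under 0.05. In miR155_KO against WT, 24 of the 41 tested members were higher and 12 lower, with 5 not called, beside 27.2% of all genes called higher and 35.3% called lower. The median log2 fold change was 0.49 over the members and -0.05 over all genes, on the log2(RPKM + 0.5) scale used throughout, which understates the change of low genes. In PU1_KI against WT, 14 members were higher and 0 lower, beside 23.7% of all genes called higher and 4.03% called lower, and the median was 0.13 over the members and 0.08 over all genes. In miR155_KO against PU1_KI, 21 members were higher and 13 lower, beside 17.9% and 46.4% of all genes, with a median of 0.21 over the members and -0.13 over all genes. Without the 3 high libraries the counts were 26 higher and 12 lower in miR155_KO against WT, 14 and 2 in PU1_KI against WT, and 22 and 13 in miR155_KO against PU1_KI. The split into higher and lower depends on the scaling of the libraries where PU1_KI is involved. For PU1_KI against WT, 2279 of all genes were called higher and 388 lower, beside 1681 and 1498 with median-of-ratios scaling and 1520 and 1549 with quantile normalization, and the members gave 12 higher and 4 lower with either. For miR155_KO against PU1_KI, 1725 of all genes were higher and 4467 lower, beside 2725 and 3378 with median-of-ratios scaling, when the median over all genes was -0.03, and 2831 and 3216 with quantile normalization, and the members gave 25 higher and 11 lower with the first and 28 and 9 with the second. The comparisons with WT share the WT libraries, and those with miR155_KO share its libraries.

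The synthetases did not move as a block in miR155_KO. Of the 20, 11 were higher than in WT, 6 were lower and 3 were not called (27.2% of all genes higher and 35.3% lower). Their median log2 fold change was 0.18. The split followed a list of 12 synthetases that have been reported as induced by ATF4: 11 of these 12 were higher and 0 lower (median 0.54), while 0 of the other 8 were higher and 6 lower (median -0.25). With median-of-ratios scaling or quantile normalization all 12 of the list were higher, and among the other 8 quantile normalization left 5 lower and 1 higher. The list was assembled with earlier results of these data known, so the split is given as a description.

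Cars, the cysteinyl-tRNA synthetase (ENSMUSG00000010755, chromosome 7, 150743135 to 150785995, build NCBIM37), had the largest change of the synthetases. Its libraries lay at 29.5, 29.4, 29.7, 28.6 and 29.3 RPKM in miR155_KO, at 17.4, 17.9, 20.1, 22.7 and 19.6 RPKM in PU1_KI and at 13.1, 14.2, 14.3 and 15.9 RPKM in WT. The genotypes did not overlap, with a log2 fold change of 1.00 ± 0.07 (SE, adjusted p = 3.59e-10) for miR155_KO against WT and 0.42 ± 0.07 (SE, adjusted p = 0.000139) for PU1_KI against WT. The spread of Cars was narrow in miR155_KO, at 29.3 ± 0.406 RPKM (SD, n = 5).

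Sars charges serine, which is also the product of the pathway described further on. It stood at 59.4, 59.5, 62.5, 59.7 and 62.9 RPKM in miR155_KO, at 37.7, 39.5, 44.1, 48.4 and 41.5 RPKM in PU1_KI and at 31.99, 32.2, 33.4 and 38.3 RPKM in WT. All miR155_KO libraries were above both other genotypes, while the lowest PU1_KI library lay below the highest WT library. Sars changed by 0.83 ± 0.07 (SE, adjusted p = 5.5e-09) in miR155_KO and by 0.31 ± 0.07 (SE, adjusted p = 0.00257) in PU1_KI, as log2 fold changes against WT.

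For Aars, the alanyl-tRNA synthetase, the values were 35.4, 35.5, 36.9, 35.4 and 40.1 RPKM in miR155_KO, 23.8, 24.4, 26.7, 31.4 and 26.4 RPKM in PU1_KI and 21.5, 22.2, 22.6 and 23.8 RPKM in WT. Again the miR155_KO libraries stood clear of the rest, and the PU1_KI libraries all lay above WT, the closest by a small step. Against WT, Aars had a log2 fold change of 0.69 ± 0.07 (SE, adjusted p = 8.17e-08) in miR155_KO and 0.23 ± 0.07 (SE, adjusted p = 0.0209) in PU1_KI. The PU1_KI call of Aars was lost without WT_1 (adjusted p = 0.0661), without WT_2 (adjusted p = 0.0527) or without PU1_KI_4 (adjusted p = 0.0512).

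Gars, the glycyl-tRNA synthetase, had 71.2, 72.3, 77.6, 75.6 and 82.9 RPKM in miR155_KO, 53.04, 52.1, 55.8, 66.1 and 56.7 RPKM in PU1_KI and 48.1, 46.8, 46.5 and 54.7 RPKM in WT. Only miR155_KO was separate from WT in every library, since WT_4 lay within the PU1_KI range. Its log2 fold change was 0.63 ± 0.07 (SE, adjusted p = 4.07e-07) in miR155_KO and 0.21 ± 0.07 (SE, adjusted p = 0.0368) in PU1_KI. The PU1_KI call was lost when any of WT_1, WT_2, WT_3, PU1_KI_3, PU1_KI_4 or PU1_KI_5 was left out, with adjusted p from 0.0595 to 0.105, and with median-of-ratios scaling (adjusted p = 0.0711).

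Among the remaining synthetases, Nars, which charges asparagine, averaged 65.96 ± 3.48 RPKM in miR155_KO, 49.2 ± 4.45 in PU1_KI and 45.2 ± 2.53 in WT. Its log2 fold change was 0.54 ± 0.07 (SE, adjusted p = 8.73e-07) for miR155_KO and 0.12 ± 0.07 (SE, adjusted p = 0.187) for PU1_KI. Eprs, which carries glutamyl and prolyl activities in a single chain, showed another order: 42.0 ± 3.796 RPKM in miR155_KO, 27.6 ± 2.44 in PU1_KI and 28.2 ± 1.66 in WT. Its log2 fold change was 0.56 ± 0.07 (SE, adjusted p = 2.26e-06) in miR155_KO, and in PU1_KI the value was -0.04 ± 0.07 (SE, adjusted p = 0.757). Yars, Iars, Lars, Mars and Wars were also higher in miR155_KO, by 0.53, 0.51, 0.34, 0.20 and 0.17 on the log2 scale. The Wars call (adjusted p = 0.0313) was lost without WT_1, WT_2, WT_3 or miR155_KO_5. Tars was the member of the ATF4 list that was not called, at 0.15 ± 0.08 (SE, adjusted p = 0.0859).

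The synthetases that fell in miR155_KO were led by those for histidine, arginine and phenylalanine. Hars had 18.4, 19.7, 19.3, 19.0 and 24.9 RPKM in miR155_KO, 24.2, 25.5, 25.5, 29.2 and 25.4 RPKM in PU1_KI and 28.1, 27.6, 27.4 and 29.9 RPKM in WT. All miR155_KO libraries lay below WT, including miR155_KO_5, which stood apart from the other 4, and the log2 fold change was -0.48 ± 0.08 (SE, adjusted p = 2.16e-05). Rars fell by 0.46, Farsa by 0.41, Kars by 0.28, Vars by 0.21 and Farsb by 0.19 on the log2 scale. Farsa and Farsb encode the subunits of phenylalanyl-tRNA synthetase, and both were lower. The Farsb call was lost with quantile normalization (adjusted p = 0.0751), and the Vars call, at an adjusted p of 0.0245, was lost when WT_2, WT_3, WT_4, miR155_KO_3 or miR155_KO_4 was left out.

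Some cytosolic synthetases sit together in the multisynthetase complex. The 8 that belong to it divided in miR155_KO against WT into 4 higher (Eprs, Iars, Lars and Mars), 2 lower (Kars and Rars) and 2 not called (Dars and Qars). Beside them, 27.2% of all genes were called higher and 35.3% lower. Of its 3 scaffold proteins, Aimp2 and Eef1e1 were lower, and Aimp1 was not called. These scaffold genes are named here after their values were seen. Aimp2 averaged 8.10 ± 1.64 RPKM in miR155_KO and 14.7 ± 1.05 in WT, a log2 fold change of -0.84 ± 0.10 (SE, adjusted p = 9.77e-07), and Eef1e1 averaged 12.6 ± 0.989 against 18.9 ± 1.51 RPKM, a log2 fold change of -0.56 ± 0.06 (SE, adjusted p = 4.27e-07). Outside the complex, 7 of 12 synthetases were higher and 4 lower, the latter share close to the 35.3% of all genes called lower.

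**Figure D1:**
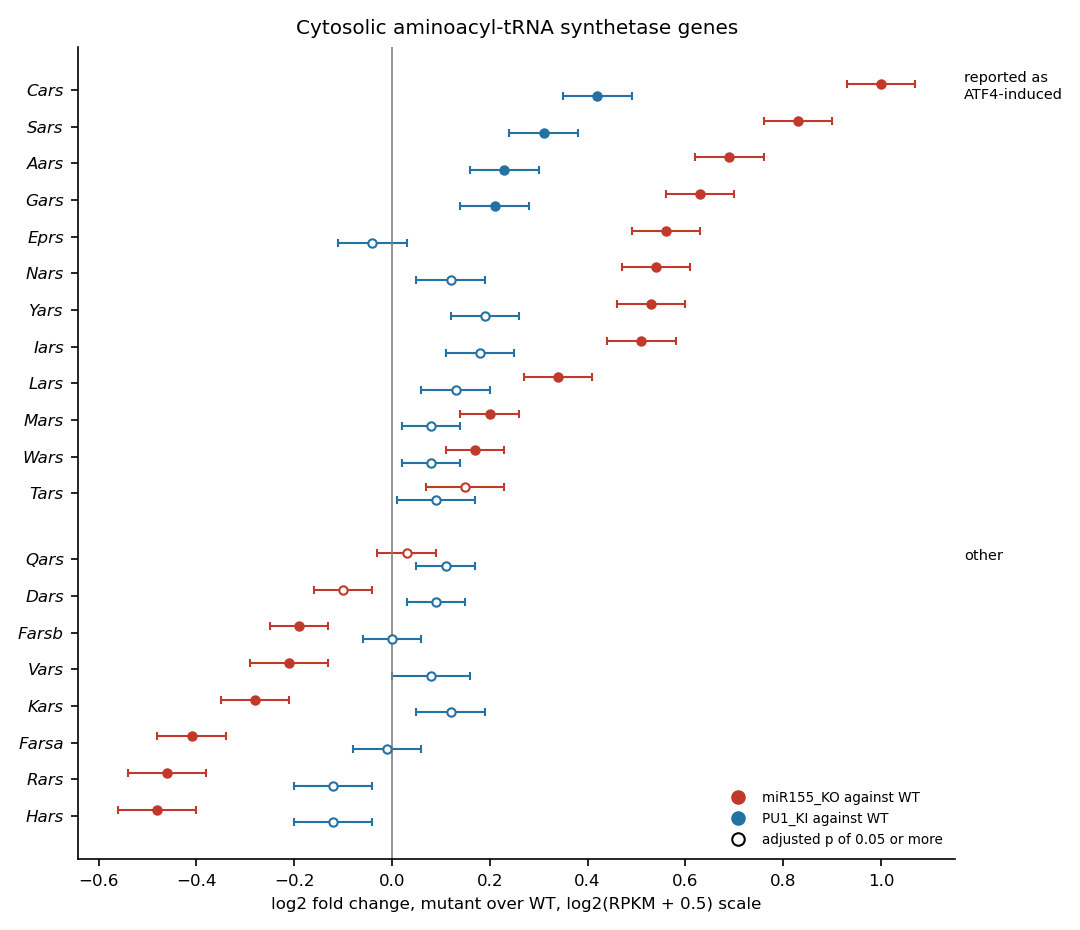
Log2 fold change over WT of each of the 20 cytosolic synthetase genes (y axis) on the log2(RPKM + 0.5) scale (x axis), with miR155_KO in red and PU1_KI in blue; bars are standard errors and open points were not called. The 12 synthetases reported as induced by ATF4 stand above the other 8, and 11 of the 12 were called higher in miR155_KO against 0 of the other 8.

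In PU1_KI fewer synthetases were called. Against WT, 4 of the 20 were higher (Cars, Sars, Aars and Gars, all in the ATF4 list) and 0 lower, a share below the 23.7% of all genes called higher, with a median log2 fold change of 0.10 beside 0.08 over all genes. With median-of-ratios scaling 3 were higher and 2 lower (Rars and Hars), and with quantile normalization 4 higher and 2 lower. None of the 8 synthetases of the multisynthetase complex was called in the main analysis. In miR155_KO against PU1_KI, 9 synthetases were higher and 7 lower, beside 17.9% of all genes called higher and 46.4% called lower. The share of synthetases called lower was thus below that of all genes. The 9 were all within the ATF4 list and the 7 all outside it, which is again a description. With median-of-ratios scaling 12 were higher and 5 lower, all 12 in the list, and with quantile normalization 13 were higher and 4 lower, with Qars from outside the list among the 13. Dars, among the 7, was at -0.19 ± 0.06 (SE, adjusted p = 0.00881) there and at 0.02 with quantile normalization (adjusted p = 0.78). Its call and that of Farsb were lost with either rescaling, and that of Vars with quantile normalization (-0.08, adjusted p = 0.109).

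Promoter sequence was searched for 29 of the 42 genes (RefSeq, GRCm38.p6, 250 bases before to 50 after each start site, 33 promoters). Promoters of Aars, Cars, Hars, Lars, Mars, Nars, Rars, Vars, Wars, Slc7a5, Slc1a5, Slc38a1 and Cth were not used here. The core letters of a CARE, TGATGNAA on either strand, occurred in 8 of the 33 member promoters (24.2%) and in 4.0% of 32850 promoters of the same length. The E-box CACGTG, a palindrome bound by MYC and related factors, occurred in 4 of the 33 (12.1%) and in 7.1% of all promoters. The motifs did not overlap each other. Windows of 28 bases around the CARE core are shown for the members below, since the division of the synthetases is drawn along reported ATF4 targets. They are written 5′ to 3′ on the gene's strand, with the match in capitals, and the match may lie on either strand.
Gars, chr6:55037961-55037988, plus strand: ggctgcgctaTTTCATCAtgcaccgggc
Iars, chr13:49682127-49682154, plus strand: actgtcagtaTTGCATCAcctccagacg
Yars, chr4:129189896-129189923, plus strand: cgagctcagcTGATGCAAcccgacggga
Tars, chr15:11399656-11399683, minus strand: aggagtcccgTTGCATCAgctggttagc
Slc1a4, chr11:20332700-20332727, minus strand: gcctcctgcgTTGCATCAtctccagcct
Pycr1, chr11:120643834-120643861, minus strand: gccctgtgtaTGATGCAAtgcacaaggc
Got1, chr19:43524690-43524717, minus strand: attgcattggTTGCATCAtacaagcctc

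Of these genes, Gars, Iars, Yars, Slc1a4 and Pycr1 were higher in miR155_KO than in WT, and Tars and Got1 were not called. Among the 28 tested members searched, 5 of the 7 with a CARE core were higher in miR155_KO and 0 lower, and of the 21 without one 11 were higher and 7 lower. In PU1_KI against WT 3 of the 7 and 7 of the 21 were higher. Over all genes 27.2% were higher and 35.3% lower in miR155_KO against WT, and 23.7% were higher in PU1_KI against WT. The share of the 21 called lower in miR155_KO thus lay close to that of all genes. The difference between members with and without a core was not tested. Slc7a11 had a pair of CARE cores, but at 0.0418 to 0.207 RPKM it was below the level at which genes were tested. A match is a description of these letters and does not show a binding site. The 11 that rose without a match in this window were Sars, Eprs, Slc3a2, Slc38a2, Psat1, Phgdh, Psph, Shmt2, Mthfd2, Aldh18a1 and Bcat1.

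**Figure D2:**
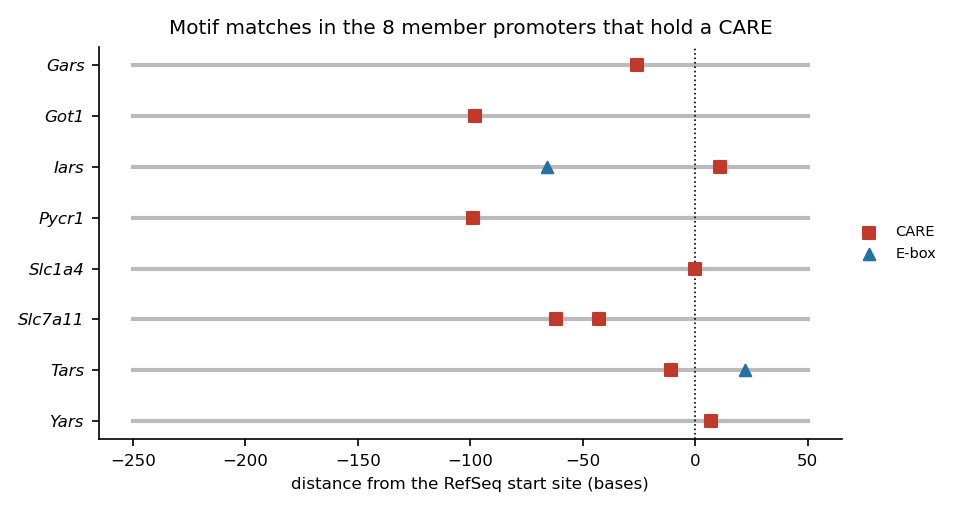
Position of CARE cores (red squares) and E-boxes (blue triangles) relative to the RefSeq start site (x axis, bases) in the 8 member promoters searched that hold a CARE core (y axis). Slc7a11 holds 2 CARE cores, and Iars and Tars also hold an E-box.

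The transporters divided as well. Of 8 tested, 4 were higher in miR155_KO than in WT, 3 lower and 1 not called (Slc7a1, the arginine and lysine carrier CAT1), with a median log2 fold change of 0.35. Over all genes 27.2% were called higher and 35.3% lower, so the share of transporters called lower lay close to that of all genes. Slc1a4 (ASCT1, which exchanges alanine, serine and cysteine; ENSMUSG00000020142, chromosome 11, 20202183 to 20232716, NCBIM37) was at 7.05, 7.09, 6.87, 7.196 and 8.26 RPKM in miR155_KO, at 3.73, 3.68, 4.18, 5.24 and 4.31 RPKM in PU1_KI and at 2.98, 2.704, 2.98 and 2.98 RPKM in WT. The 3 genotypes did not overlap in any library. Slc1a4 had a log2 fold change of 1.19 ± 0.08 (SE, adjusted p = 2e-10) in miR155_KO and 0.46 ± 0.08 (SE, adjusted p = 0.000221) in PU1_KI, both against WT.

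Slc38a2 (SNAT2), a sodium-coupled carrier of small neutral amino acids known to be induced when amino acids are scarce, had 46.97, 44.5, 50.6, 50.8 and 48.95 RPKM in miR155_KO, 26.04, 26.4, 29.5, 30.6 and 28.4 RPKM in PU1_KI and 23.1, 23.8, 24.3 and 25.6 RPKM in WT. Its groups were separate as well, and its change in miR155_KO was 0.98 ± 0.06 (SE, adjusted p = 6.01e-11) beside 0.21 ± 0.06 (SE, adjusted p = 0.0122) in PU1_KI. The PU1_KI call was lost with quantile normalization (adjusted p = 0.0584). Its relative Slc38a1 went the other way in miR155_KO, at -0.19 ± 0.06 (SE, adjusted p = 0.0141), a call lost without WT_4 (adjusted p = 0.0506).

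Slc3a2 encodes the heavy chain (4F2hc, CD98) that several light chains need to reach the membrane. It lay at 39.05, 40.1, 41.1, 40.8 and 45.6 RPKM in miR155_KO, at 28.4, 28.4, 35.2, 37.4 and 30.7 RPKM in PU1_KI and at 24.2, 27.6, 26.1 and 27.2 RPKM in WT, with a log2 fold change of 0.64 ± 0.08 (SE, adjusted p = 8.14e-07) in miR155_KO and 0.27 ± 0.08 (SE, adjusted p = 0.013) in PU1_KI. No library of one genotype lay within the range of another. The PU1_KI call did not hold without WT_1 (adjusted p = 0.0519). Its light chains differed among themselves. Slc7a5 (LAT1), which carries large neutral amino acids, averaged 47.7 ± 4.81 RPKM in miR155_KO, 36.8 ± 5.303 in PU1_KI and 30.7 ± 1.61 in WT, a change of 0.62 ± 0.09 (SE, adjusted p = 5.77e-06) in miR155_KO and 0.25 ± 0.09 (SE, adjusted p = 0.0424) in PU1_KI. The PU1_KI call of Slc7a5 was also the least stable of the set, since it was lost in 14 of 23 alternative analyses. Slc7a6 (y+LAT2) was lower in miR155_KO, at 8.71 ± 0.533 RPKM beside 12.4 ± 0.713 in WT (-0.49 ± 0.06 (SE, adjusted p = 3.96e-07)), and Slc7a11 (xCT, the cystine carrier) was close to 0 everywhere.

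Slc1a5 (ASCT2), a main carrier of glutamine and the most abundant transporter of the set in PU1_KI and WT, averaged 44.02 ± 3.96 RPKM in miR155_KO, 54.5 ± 3.59 in PU1_KI and 56.5 ± 3.87 in WT. It fell in miR155_KO (-0.36 ± 0.07 (SE, adjusted p = 0.000185)) and its PU1_KI value was -0.05 ± 0.07 (SE, adjusted p = 0.623), which became -0.14 with median-of-ratios scaling (adjusted p = 0.0212). Of the 8 transporters, 4 were higher in PU1_KI than in WT, the same 4 as in miR155_KO, beside 23.7% of all genes. In miR155_KO against PU1_KI these 4 were higher, and Slc7a6, Slc1a5 and Slc38a1 lower, beside 17.9% of all genes higher and 46.4% lower. The share of transporters called lower was thus below that of all genes. The transporter calls of miR155_KO against PU1_KI held in the alternative analyses apart from that of Slc38a1. The lower call of Slc38a1 was lost there with quantile normalization (adjusted p = 0.136), which also called Slc7a1 higher (0.13, adjusted p = 0.00755).

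All 3 enzymes that make serine from the glycolytic intermediate 3-phosphoglycerate were higher in miR155_KO than in WT, beside 27.2% of all genes. Their median log2 fold change was 0.65. Phgdh, the entry enzyme, had 78.5, 78.7, 73.4, 67.6 and 94.2 RPKM in miR155_KO, 52.8, 52.1, 58.1, 65.7 and 56.6 RPKM in PU1_KI and 46.3, 53.4, 49.7 and 49.7 RPKM in WT. Psat1, the aminotransferase that follows, had 51.3, 51.7, 55.3, 53.2 and 61.6 RPKM in miR155_KO, 37.8, 37.3, 41.4, 48.7 and 41.7 RPKM in PU1_KI and 34.6, 33.1, 33.2 and 37.2 RPKM in WT. Psph, the phosphatase that releases serine, had 21.2, 22.5, 22.5, 20.2 and 24.8 RPKM in miR155_KO, 11.4, 12.2, 12.5, 15.2 and 11.8 RPKM in PU1_KI and 12.1, 11.2, 12.1 and 13.4 RPKM in WT. For each of them every miR155_KO library was above every library of the other genotypes. Of all tested genes, 23.5% had every miR155_KO library above every WT library, and 13.4% had them above every PU1_KI library. Against WT the log2 fold changes were 0.64 ± 0.08 (SE, adjusted p = 1.91e-06) for Phgdh, 0.65 ± 0.07 (SE, adjusted p = 4.01e-07) for Psat1 and 0.84 ± 0.08 (SE, adjusted p = 2.04e-08) for Psph.

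The same enzymes differed less in PU1_KI. Psat1 was higher than in WT, at 0.25 ± 0.07 (SE, adjusted p = 0.0158), a call lost without WT_2 (adjusted p = 0.0508). Phgdh was at 0.19 ± 0.08 (SE, adjusted p = 0.0944) and Psph at 0.05 ± 0.08 (SE, adjusted p = 0.706). For Psph the sign of the difference between PU1_KI and WT depended on the analysis: it was -0.04 with either rescaling and -0.02 without PU1_KI_4, whose 15.2 RPKM stood apart from the other PU1_KI libraries. Between miR155_KO and PU1_KI, Psph showed the widest gap of the 3, at 0.80 ± 0.07 (SE, adjusted p = 2.43e-08).

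Serine passes a carbon unit to folate, and cells run this chemistry in parallel in mitochondria and cytosol. In miR155_KO the members split: Mthfd2 and Shmt2, both mitochondrial, were higher than in WT, while the cytosolic Shmt1 and Mthfd1 and the mitochondrial Mthfd1l were lower. The shares of all genes called in this comparison were 27.2% higher and 35.3% lower. Mthfd2, the mitochondrial dehydrogenase and cyclohydrolase, had 51.02, 50.8, 54.7, 52.1 and 55.4 RPKM in miR155_KO, 31.1, 31.8, 34.7, 40.5 and 34.4 RPKM in PU1_KI and 25.8, 25.1, 24.9 and 28.9 RPKM in WT. The genotypes were separate, and the log2 fold change was 1.00 ± 0.07 (SE, adjusted p = 4.41e-10) in miR155_KO and 0.39 ± 0.07 (SE, adjusted p = 0.000381) in PU1_KI. Shmt2, which splits serine into glycine in mitochondria, averaged 93.97 ± 12.6 RPKM in miR155_KO, 78.6 ± 11.4 in PU1_KI and 66.4 ± 6.596 in WT, with 0.49 ± 0.10 (SE, adjusted p = 0.000408) for miR155_KO and 0.24 ± 0.10 (SE, adjusted p = 0.0976) for PU1_KI.

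Shmt1, the cytosolic form (ENSMUSG00000020534, chromosome 11, 60601606 to 60624767, NCBIM37), had the largest fall of the whole set. Its values were 6.35, 6.84, 6.76, 6.62 and 10.3 RPKM in miR155_KO, 12.3, 11.4, 12.9, 14.9 and 12.9 RPKM in PU1_KI and 14.6, 15.5, 14.9 and 15.9 RPKM in WT. Every miR155_KO library, also miR155_KO_5 at 10.3 RPKM, was below every other, and one PU1_KI library reached into the WT range. The log2 fold change was -1.02 ± 0.10 (SE, adjusted p = 7.53e-08) in miR155_KO and -0.23 ± 0.10 (SE, adjusted p = 0.0963) in PU1_KI. The PU1_KI value passed the threshold in 6 alternative analyses, from -0.23 to -0.32.

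Mthfd1, which carries 3 activities of the cytosolic pathway in a single protein, had 10.2, 10.9, 10.3, 9.88 and 14.4 RPKM in miR155_KO, 16.4, 15.5, 18.2, 19.8 and 16.2 RPKM in PU1_KI and 16.8, 18.2, 18.1 and 20.4 RPKM in WT. Here too only miR155_KO was set apart, at -0.71 ± 0.09 (SE, adjusted p = 2.78e-06), with PU1_KI at -0.10 ± 0.09 (SE, adjusted p = 0.49). In miR155_KO against PU1_KI, Mthfd2 and Shmt2 were higher and the other 3 lower, beside 17.9% of all genes higher and 46.4% lower. The Shmt2 call (0.26 ± 0.10 (SE, adjusted p = 0.0275)) was lost in 6 of 23 alternative analyses. Mthfd1l, the mitochondrial enzyme that releases formate, averaged 14.2 ± 1.69 RPKM in miR155_KO, 19.6 ± 0.901 in PU1_KI and 18.7 ± 1.35 in WT (-0.39 ± 0.07 (SE, adjusted p = 0.000134) in miR155_KO).

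A ratio taken within a library does not depend on a scaling factor applied to the whole library. Shmt2 over Shmt1 was 14.4, 14.2, 13.2, 11.9 and 11.0 in miR155_KO, 5.71, 6.16, 6.87, 6.28 and 5.42 in PU1_KI and 3.905, 4.45, 4.84 and 4.25 in WT. Mthfd2 over Mthfd1 was 4.99, 4.64, 5.33, 5.27 and 3.84 in miR155_KO, 1.899, 2.05, 1.91, 2.05 and 2.13 in PU1_KI and 1.54, 1.38, 1.37 and 1.41 in WT. For both ratios the genotypes did not overlap, with miR155_KO highest and PU1_KI between. The mean was 12.9 ± 1.47 in miR155_KO, 6.09 ± 0.557 in PU1_KI and 4.36 ± 0.391 in WT for Shmt2 over Shmt1 (SD, n = 5, 5 and 4). These pairs were chosen after the values were seen, and their ratios carry no test.

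**Figure D3:**
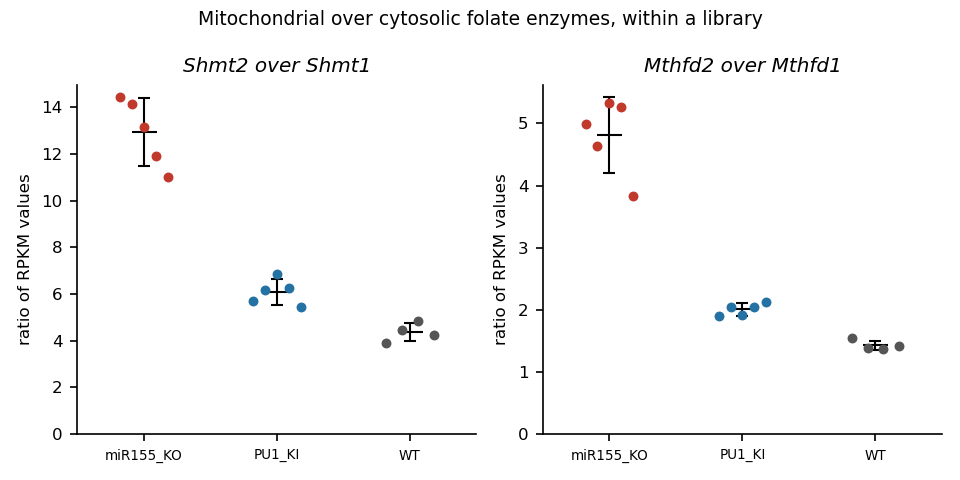
Ratio of RPKM values of Shmt2 over Shmt1 (left panel) and of Mthfd2 over Mthfd1 (right panel) in each library (points), by genotype on the x axis, with mean and SD in black. In both panels all 5 miR155_KO libraries lie above all 5 PU1_KI libraries, and these above all 4 WT libraries.

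Cth showed the largest change of the 41 tested members. It encodes cystathionine gamma-lyase, which makes cysteine from cystathionine (ENSMUSG00000028179, chromosome 3, 157557212 to 157588041, NCBIM37). Its libraries had 34.8, 33.05, 35.5, 33.5 and 36.01 RPKM in miR155_KO, 8.74, 9.82, 10.1, 12.7 and 10.7 RPKM in PU1_KI and 6.02, 5.66, 5.38 and 7.39 RPKM in WT. The genotypes did not overlap, and the miR155_KO mean was 5.66 times the WT mean. The log2 fold change was 2.42 ± 0.09 (SE, adjusted p = 4.82e-14) in miR155_KO against WT, 0.72 ± 0.09 (SE, adjusted p = 5.69e-06) in PU1_KI against WT and 1.70 ± 0.08 (SE, adjusted p = 3.75e-12) in miR155_KO against PU1_KI. By mean level per length Cth ranked 20 of the 42 in miR155_KO, but 38 in PU1_KI and 38 in WT.

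Proline synthesis was represented by its first and last steps. Aldh18a1, which makes the pyrroline precursor from glutamate, had 34.8, 35.3, 36.4, 35.1 and 39.5 RPKM in miR155_KO, 23.2, 24.4, 28.6, 31.4 and 26.5 RPKM in PU1_KI and 20.2, 21.2, 22.2 and 23.3 RPKM in WT. Pycr1, which reduces it to proline in mitochondria, had 5.68, 5.69, 5.46, 5.495 and 6.67 RPKM in miR155_KO, 2.85, 3.21, 3.44, 4.18 and 3.56 RPKM in PU1_KI and 2.80, 2.83, 3.23 and 3.06 RPKM in WT. For both genes the miR155_KO libraries were above all others and the PU1_KI range met the WT range. The log2 fold change was 0.72 ± 0.08 (SE, adjusted p = 1.14e-07) for Aldh18a1 and 0.85 ± 0.08 (SE, adjusted p = 3.07e-08) for Pycr1 in miR155_KO, beside 0.29 ± 0.08 (SE, adjusted p = 0.00702) and 0.17 ± 0.08 (SE, adjusted p = 0.116) in PU1_KI. Pycrl, a relative named after its values were seen, was lower in miR155_KO, at -0.51 ± 0.07 (SE, adjusted p = 6.7e-06).

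The remaining pair of enzymes are aminotransferases, and both were higher in PU1_KI. Bcat1, the cytosolic aminotransferase of branched-chain amino acids, averaged 3.32 ± 0.214 RPKM in miR155_KO, 3.01 ± 0.348 in PU1_KI and 2.105 ± 0.305 in WT. It was higher in miR155_KO (0.56 ± 0.08 (SE, adjusted p = 8.5e-06)) and in PU1_KI (0.43 ± 0.08 (SE, adjusted p = 0.000554)). Got1, the cytosolic aspartate aminotransferase, was higher in PU1_KI (0.23 ± 0.07 (SE, adjusted p = 0.0131)), and in miR155_KO it was at 0.14 ± 0.07 (SE, adjusted p = 0.071). In miR155_KO against WT, Got1 was called higher in 6 of 23 alternative analyses, among them median-of-ratios scaling (0.16, adjusted p = 0.00471) and quantile normalization (0.26, adjusted p = 4.78e-05). Bcat1 and Got1 were not called in miR155_KO against PU1_KI, at 0.13 ± 0.08 (SE, adjusted p = 0.16) and -0.09 ± 0.06 (SE, adjusted p = 0.21). Bcat1 was called higher there with median-of-ratios scaling (0.22, adjusted p = 0.0112) and quantile normalization (0.17, adjusted p = 0.037), and Got1 with quantile normalization (0.12, adjusted p = 0.0144).

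**Figure D4:**
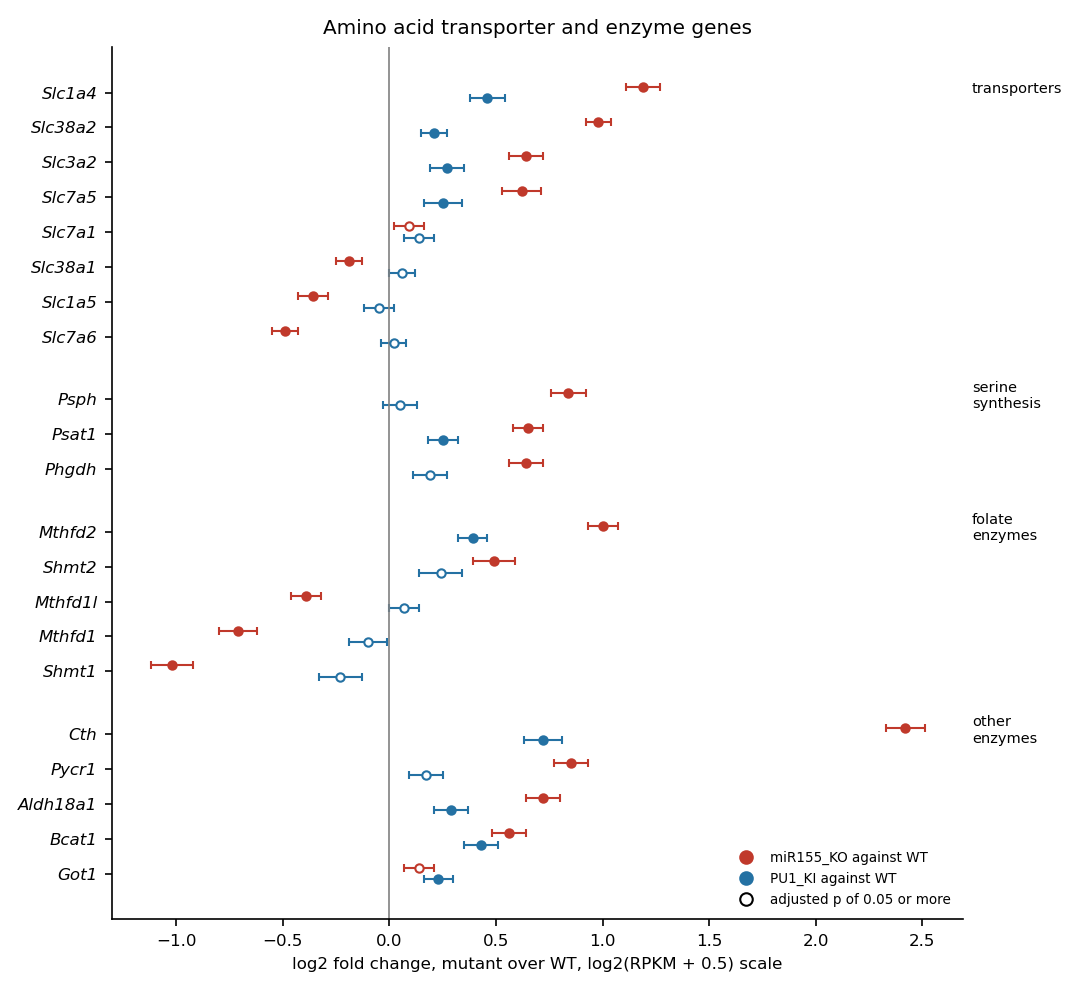
Log2 fold change over WT of the 21 tested transporter and enzyme genes (y axis, by role) on the log2(RPKM + 0.5) scale (x axis), with miR155_KO in red and PU1_KI in blue; bars are standard errors and open points were not called. Cth lies farthest right at 2.42 in miR155_KO, and the 3 folate enzymes Mthfd1l, Mthfd1 and Shmt1 lie to the left of 0 in miR155_KO.

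Set side by side, the genotypes gave a graded order for many members. In 24 of the 41 the PU1_KI mean lay between a higher miR155_KO mean and a lower WT mean, an order seen in 22.9% of all tested genes. There were 12 members higher in both mutants against WT and higher in miR155_KO than in PU1_KI. Another 9 were higher in miR155_KO than in either of the others and not called between PU1_KI and WT, and 12 were lower in miR155_KO than in either of the others and not called between PU1_KI and WT. The share of all genes with these joint patterns was not counted, so the patterns are given as a description. By single comparison, 35.3% of all genes were lower in miR155_KO than in WT and 46.4% lower than in PU1_KI. Bcat1 was higher in both mutants with no call between them, and Got1 was called in PU1_KI against WT alone, patterns that the rescalings changed for both genes as given above. All libraries of miR155_KO lay above all WT libraries for 23 members and below them for 10, beside 23.5% and 24.9% of all tested genes. All PU1_KI libraries lay above all WT libraries for 10 members and below them for 0, beside 18.4% and 3.76% of all tested genes.

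**Figure D5:**
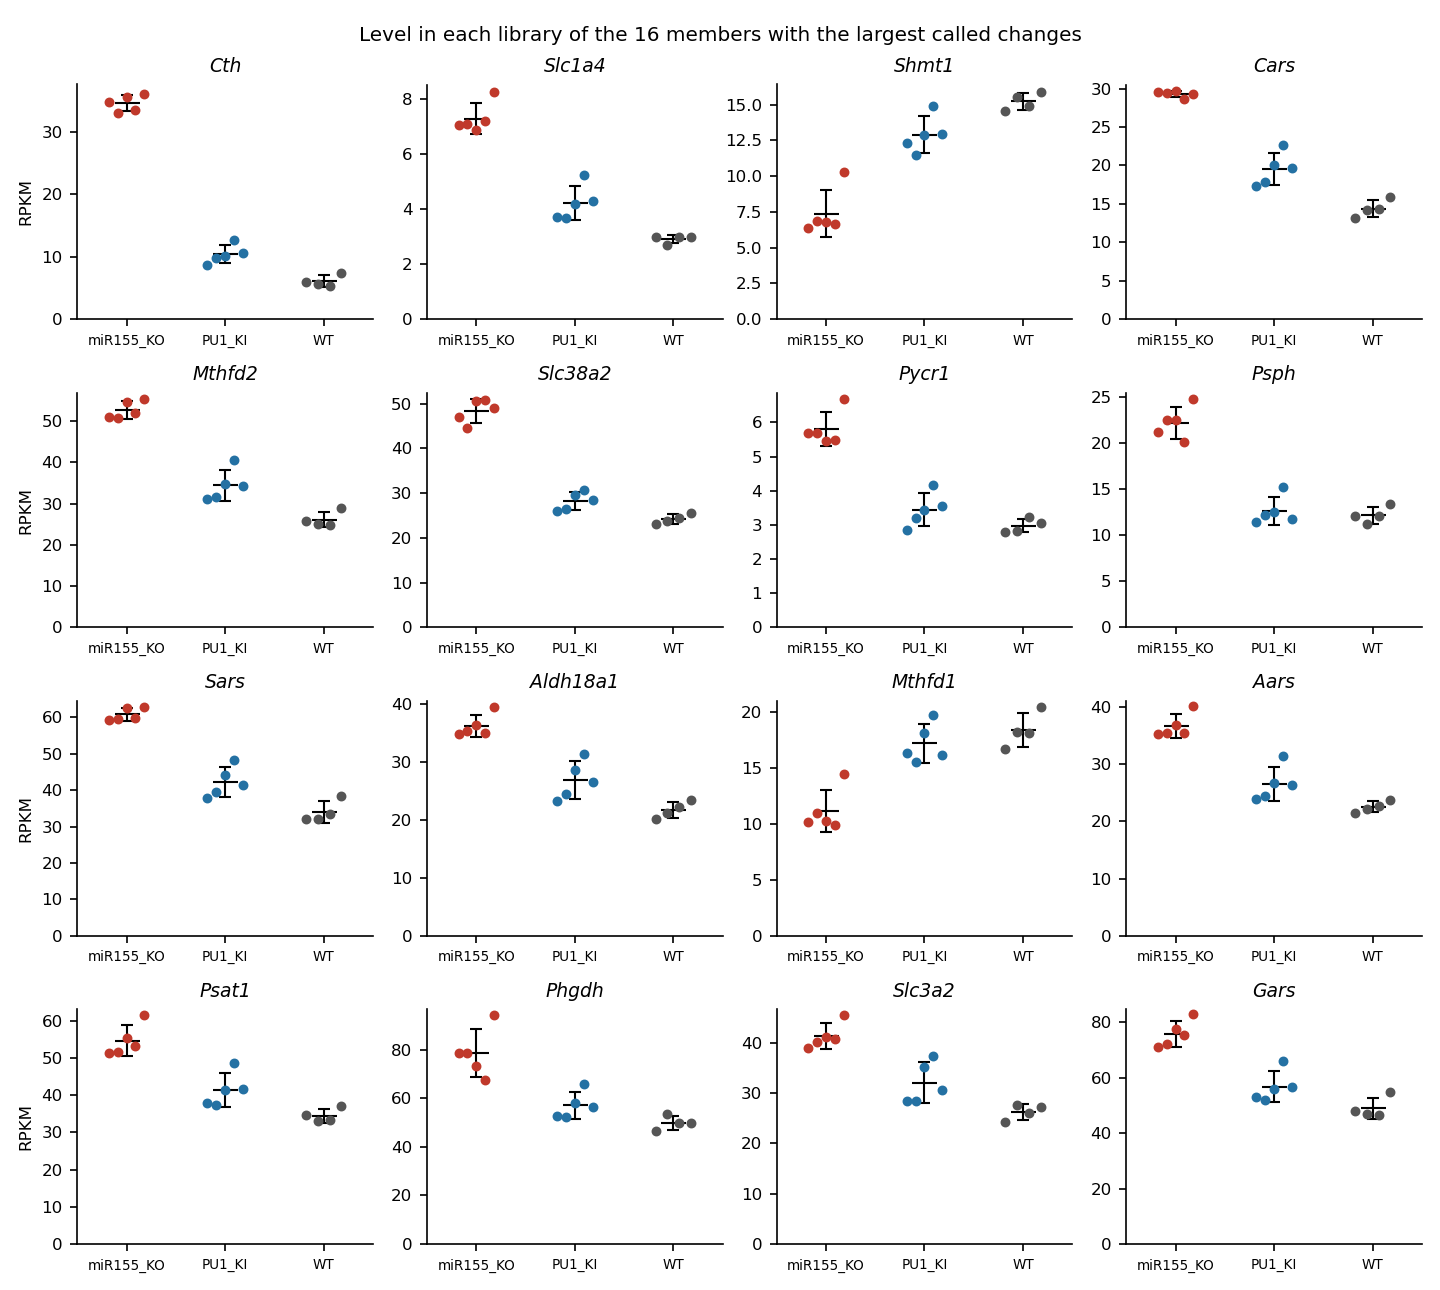
RPKM (y axes, from 0) in each library (points) of the 16 members with the largest called log2 fold changes, by genotype on the x axis, with mean and SD in black. The miR155_KO libraries lie above all others in 14 of the panels and below all others for Shmt1 and Mthfd1.

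Ranked by level per length, the set spanned a wide range. In WT the highest means were Vars at 90.3 ± 7.47 RPKM, Shmt2 at 66.4 ± 6.596 and Kars at 59.9 ± 3.92, and the lowest tested was Bcat1 at 2.105 ± 0.305. In miR155_KO the highest were Shmt2 at 93.97 ± 12.6, Phgdh at 78.5 ± 9.91 and Vars at 78.2 ± 6.61, neighbours whose ranges overlap. Summed over the 12 synthetases of the ATF4 list, the level was 492 ± 23.8 RPKM in miR155_KO, 379 ± 33.6 in PU1_KI and 337 ± 16.1 in WT (SD, n = 5, 5 and 4).

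Because one mutant lacks miR-155 and the other lacks its site in PU.1, the members' 3′ UTRs were searched for the miR-155 seed match. The mature miRNA is printed with its seed, bases 2 to 8, in capitals (RefSeq, GRCm38.p6), followed by each member site and that of Spi1, the current symbol of PU.1 (GENCODE M21 transcripts, GRCm38), with the match in capitals.
mmu-miR-155-5p: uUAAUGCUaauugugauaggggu
Spi1, 8mer: cgccggccatAGCATTAAcccgtcgccc
Slc38a2, 8mer: tttatagagcAGCATTAAtccattaaag
Slc7a1, 8mer: ttggctcccaAGCATTAAggaatcttaa
Yars, 7mer-m8: gtggttcattAGCATTAggttcacgcta
Bcat1, 7mer-m8: aagacagtagAGCATTAggaccatgtaa
Got1, 7mer-A1: tgttggctgggGCATTAAaactcatcat

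A seed match occurred in 5 of the 42 members (11.9%) and in 11.5% of 20616 protein-coding genes. Of the 5, Slc38a2, Yars and Bcat1 were higher in miR155_KO than in WT, and Slc7a1 and Got1 were not called, at 0.09 ± 0.07 (SE, adjusted p = 0.268) and 0.14 ± 0.07 (SE, adjusted p = 0.071), beside 27.2% of all genes called higher. With either rescaling all 5 were called higher, Slc7a1 at 0.11 with median-of-ratios scaling (adjusted p = 0.0403) and at 0.19 with quantile normalization (adjusted p = 0.000821). In PU1_KI, where miR-155 is intact, Slc38a2, Bcat1 and Got1 were higher than in WT, beside 23.7% of all genes. The Slc38a2 call was lost there with quantile normalization (adjusted p = 0.0584). The member with the largest change, Cth, and the largest of the synthetases, Cars, had no match in their 3′ UTRs of 571 and 642 bases. A match or its absence is again a description of the letters, and direct action of miR-155 on the members was not tested.

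Other genes of the pathway were taken from lists of 106 symbols, of which 87 were tested. Among 17 mitochondrial synthetases 2 were higher and 8 lower in miR155_KO against WT (median -0.14), and 1 was higher and 0 lower in PU1_KI. Among those higher in miR155_KO was Lars2, for which it is not known whether all its reads belong to its transcript. Among 25 tested genes of amino acid and stress sensing 11 were higher and 7 lower in miR155_KO (median 0.09), and 14 were higher and 0 lower in PU1_KI (median 0.22). Other amino acid transporters gave 8 higher and 6 lower of 17 in miR155_KO and 6 higher and 2 lower in PU1_KI. Other amino acid and folate enzymes gave 7 higher and 10 lower of 25 in miR155_KO, and 6 higher and 2 lower in PU1_KI. Over all genes 27.2% were higher and 35.3% lower in miR155_KO, and 23.7% higher and 4.03% lower in PU1_KI. In miR155_KO the shares of the enzyme list lay close to these.

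The 6 of these genes with the largest called changes were all higher in both mutants. The stress-sensing list did not move as a block, with 11 higher and 7 lower in miR155_KO. Among the 7 were Ppp1r15a at -1.17 ± 0.08 (SE, adjusted p = 1.92e-10) and Rragb at -1.13 ± 0.08 (SE, adjusted p = 4.56e-10) against WT. Atf3 was not called there, at -0.09 ± 0.06 (SE, adjusted p = 0.235). Nupr1, a small stress-induced chromatin protein, had 13.5, 12.3, 14.2, 14.3 and 11.1 RPKM in miR155_KO, 1.93, 2.15, 2.53, 2.56 and 2.76 RPKM in PU1_KI and 1.04, 0.866, 1.296 and 0.962 RPKM in WT. Trib3, a pseudokinase induced by ATF4, had 15.8, 15.1, 16.2, 13.4 and 14.5 RPKM in miR155_KO, 4.51, 3.87, 5.01, 5.45 and 3.94 RPKM in PU1_KI and 2.45, 2.55, 3.03 and 2.71 RPKM in WT. Neither gene overlapped between genotypes, and the log2 fold change in miR155_KO was 3.14 ± 0.09 (SE, adjusted p = 2.32e-15) for Nupr1 and 2.28 ± 0.09 (SE, adjusted p = 5.28e-14) for Trib3. In PU1_KI the same genes were at 0.90 ± 0.09 (SE, adjusted p = 8.01e-07) and 0.66 ± 0.09 (SE, adjusted p = 9.65e-06).

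Gpt2, the mitochondrial alanine aminotransferase, averaged 13.7 ± 0.766 RPKM in miR155_KO, 4.24 ± 0.725 in PU1_KI and 2.76 ± 0.244 in WT. Slc6a9, the glycine transporter GlyT1, averaged 7.73 ± 0.298 RPKM in miR155_KO, 2.57 ± 0.533 in PU1_KI and 1.62 ± 0.0518 in WT. Both encode ways to obtain small amino acids, and in miR155_KO they were at 2.12 ± 0.09 (SE, adjusted p = 1.77e-13) and 1.96 ± 0.09 (SE, adjusted p = 7.24e-13). The bZIP factors Atf5 and Ddit3 (CHOP) were at 1.98 ± 0.11 (SE, adjusted p = 1.43e-11) and 1.75 ± 0.08 (SE, adjusted p = 1.76e-12) in miR155_KO and at 0.47 ± 0.11 (SE, adjusted p = 0.00345) and 0.51 ± 0.08 (SE, adjusted p = 0.00018) in PU1_KI.

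Atf4 and its well-known target Asns were looked up after these values were seen. Atf4 mRNA had 122, 123, 128, 124 and 129.6 RPKM in miR155_KO, 94.1, 98.03, 106, 112 and 100.4 RPKM in PU1_KI and 84.2, 87.6, 86.8 and 92.3 RPKM in WT. Asns, the asparagine synthetase, had 49.2, 47.3, 53.4, 50.1 and 52.5 RPKM in miR155_KO, 21.4, 21.4, 24.4, 29.4 and 25.5 RPKM in PU1_KI and 15.2, 14.3, 14.4 and 15.9 RPKM in WT. For both genes the libraries of the genotypes did not overlap. The log2 fold change was 0.51 ± 0.06 (SE, adjusted p = 2.74e-07) in miR155_KO and 0.22 ± 0.06 (SE, adjusted p = 0.00743) in PU1_KI for Atf4, and 1.72 ± 0.08 (SE, adjusted p = 6.68e-13) and 0.68 ± 0.08 (SE, adjusted p = 2.04e-06) for Asns. ATF4 is controlled largely at translation, and protein was not measured here.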

How the data were processed

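The authors deposited 1 table of RPKM values, with a row per gene and a column per library (RNA extracted with TriZol, Illumina TruSeq mRNA kit, per the labels). Per the submitters' processing notes the steps involved Trim Galore, TopHat and build NCBIM37. The sources used here name no read counter, gene annotation or strand setting, so reads of overlapping genes cannot be told apart. Names tied all 14 columns to libraries, 0 were left over, and none of 91 column pairs was identical. The design text calls the replicates biological.

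Members and lists were chosen with earlier results of these data known. Depth was recovered from whole-read steps of the 250 lowest values of genes spanning under 2500 bp; 66.8% to 72.8% came out whole within 0.01 reads, so no count model was run. Genes with at least 1 RPKM in at least 4 libraries were tested (9627, and 41 of the 42 members) on the scale log2(RPKM + 0.5) by limma (version 3.58.1, R version 4.3.3). The model had 1 mean for each genotype across the 14 libraries and trend moderation, and p-values were two-sided with Benjamini-Hochberg adjustment. Library values are printed for members called with a log2 change of at least 0.5, at most 16 of the 23 that qualified; per role up to 2 further examples and of the other pathway genes the 6 largest called changes are named, and any other gene was named after its values were seen. Slc38a9, with a pair of rows, was left out of the lists. Scripts were tested on simulated data. Motifs were counted in RefSeq promoters and seed matches in GENCODE M21 3′ UTRs (both GRCm38) with Python 3.11.15. A promoter and a further gene are not reported here. Alternatives were other scalings, pseudocounts, filters, a replicate block, pairs of genotypes alone and libraries left out.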

Additional observations from a re-analysis of the deposited data

Results flagged for a closer look

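Among the 126 groups formed by 42 members and 3 genotypes, 15 held a library that stood apart from the rest of its genotype by Dixon's test, which flags about 1 in 20 groups by chance. Of these, 10 were in miR155_KO_5, and there the library was the highest each time. In miR155_KO_5 the synthetases Hars, Kars and Wars were at 24.9, 56.06 and 20.74 RPKM. The transporters Slc7a1 and Slc1a4 were at 21.66 and 8.257 RPKM there. The folate enzymes Shmt1, Mthfd1 and Mthfd1l were at 10.3, 14.43 and 17.2 RPKM, and Pycr1 and Bcat1 at 6.672 and 3.688 RPKM. For Shmt1 the other 4 miR155_KO libraries lay between 6.353 and 6.844 RPKM, so this library was closer to the PU1_KI and WT levels than they were. PU1_KI_4 stood apart for Hars at 29.17 RPKM and for Psph at 15.23 RPKM, the highest PU1_KI library in both. WT_4 stood apart for Wars at 18.25 RPKM and for Slc7a1 at 18.87 RPKM, again as the highest. WT_2 stood apart for Slc1a4 at 2.704 RPKM, below the other 3 WT libraries at 2.976 to 2.982 RPKM.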

How the results depend on the processing

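The counts of members called kept within 1.5 times of the reported ones in every alternative for 5 of the 6 counts. The exception was the count of members lower in PU1_KI than in WT, reported as 0: it was 4 with median-of-ratios scaling and 4 with quantile normalization (Slc1a5, Rars, Shmt1 and Hars in each), 1 with the replicate block, 1 with the 2 genotypes alone (Shmt1 in both), 2 without miR155_KO_5, PU1_KI_4 and WT_4 together (Shmt1 and Hars; chosen after seeing the data), and 0 to 1 with single libraries left out. The cause was not tested. Leaving out single libraries gave 23 to 26 higher and 10 to 12 lower in miR155_KO against WT, 10 to 17 higher in PU1_KI against WT, and 20 to 23 higher and 13 lower in miR155_KO against PU1_KI. Psph in PU1_KI against WT, reported as 0.05 and not called, was -0.04 with median-of-ratios scaling, -0.04 with quantile normalization and between -0.02 (without PU1_KI_4) and 0.09 with single libraries left out. Replicate numbers are not said to mark pairs, so the main fit held no block. Of 13 same-numbered pairs of libraries, 7 had a correlation of deviations over 0.1 (range -0.39 to 0.47). Pairs with different numbers were not measured, so these correlations cannot decide whether the numbers mark pairs. The fit with the replicate number as a block called 25 higher and 12 lower in miR155_KO against WT, 15 and 1 in PU1_KI against WT, and 22 and 13 in miR155_KO against PU1_KI. Slc7a11, too low to be tested, passed the threshold in all 3 comparisons when no filter was used.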

Other observations

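Lars2, the mitochondrial leucyl-tRNA synthetase, was listed far above the other 16 mitochondrial synthetase genes. It had 1929, 1414, 1085, 1253 and 1245 RPKM in miR155_KO, 1086, 1123, 969.6, 742.9 and 1093 RPKM in PU1_KI and 1007, 796.6, 882.1 and 961.5 RPKM in WT. The miR155_KO libraries were all above the WT libraries and overlapped those of PU1_KI, with a log2 fold change of 0.58 ± 0.14 (SE, adjusted p = 0.00121) against WT. It was singled out after its values were seen. Whether all reads counted for Lars2 belong to its coding transcript is not known from the table and was not tested, so these values may not be the level of its mRNA.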
